A study of Mus musculus with 16 samples.

Results

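The Gimap genes encode a small family of GTP-binding proteins named for their place in the immune system. The 8 genes that the mouse annotation lists (Gimap1, Gimap3, Gimap4, Gimap5, Gimap6, Gimap7, Gimap8 and Gimap9) were followed through every group of a microarray study of sorted duodenal crypt cells. They were measured by 11 probes, of 25697 in the table, and make up 8 of the 10607 genes tested. The genes were picked because their signal was lower in one sorted gate, R, than in another, NEG, so that difference and every value of the NEG gate are given as a description, with no test. All members passed the filter on dim probes (above the median of the array on at least 2 arrays), but Gimap3, Gimap4 and Gimap7 passed through the 3 NEG arrays alone, so their difference from NEG had to appear.

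The study measured RNA on 16 bead arrays. The transgenic mice (background B6/129S6 mixed) were 8 to 12 weeks old and drank doxycycline (4 mg/ml in 1% sucrose) for 24 h. All groups share this induction and the Lgr5-EGFP reporter, a green mark of intestinal stem cells. Doxycycline switched on a red TdTomato fusion with the oncogenic kinase BRAF(V600K) in one line of mice and with luciferase, an inert control, in the other; the promoter that drives the transgene is not given in the sources used here. In the BRAF line 4 gates were sorted from each of 3 mice: NEG (low in both colours), G (Lgr5-EGFP high, red low), R (red high, Lgr5-EGFP low) and RG (red and Lgr5-EGFP high). In the luciferase line only G and RG were measured, in 2 mice each, so NEG and R have no luciferase counterpart. Per the labels all 6 groups are crypt cells; no gate on a leukocyte or epithelial surface marker is named.

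Gimap proteins carry an AIG1-type GTP-binding domain and, in several members, a tail that anchors them to internal membranes. They are best known from T and B lymphocytes, where loss of single members in mice or rats shortens the life of the cells. In the gut, lymphocytes lie between the epithelial cells and in the tissue beneath them, and can come along when crypts are made into single cells.

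Signals are intensities after the normalization of the authors, with background left in, so a difference on the log2 scale understates the true change of a dim gene. A gene whose mean lay under the array median (118.9 to 119.9 intensity units) in a group is called dim there, and its change is given as a lower bound against that median. Because levels of different probes cannot be set against each other, each gene is compared only with itself. In sorted bulk RNA, fewer cells of a type and less RNA per cell cannot be told apart.

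The members fell into 2 sets by where they were bright. Gimap3, Gimap4, Gimap6 and Gimap7 were dim in 5 of the 6 groups and bright in NEG. Gimap1, Gimap5 and Gimap8 had means above the array median in every group, and Gimap9 lay near the median. This split was made after the values were seen and is a description.

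The 8 genes lie next to each other on chromosome 6 with 0 other protein-coding genes between them in the RefSeq annotation (GRCm38.p6), in the order Gimap8, Gimap9, Gimap4, Gimap6, Gimap7, Gimap1, Gimap5 and Gimap3. All but Gimap6 and Gimap3 are read from the plus strand. The start regions of 4 of them are shown, 3 from the set that was bright in NEG alone and Gimap1 from the other set, so that neighbouring genes of both kinds can be read side by side. Each is a RefSeq window of 300 bases that begins 250 bases before the annotated start, written 5′ to 3′ on the strand of the gene. Capitals mark the letters GGAAGT, a form of the sites bound by ETS factors, or TGTGGT, a form of those bound by RUNX factors. Both strands were searched (ACTTCC and ACCACA when read from the opposite one). Shorter or other forms of these sites, such as GGAA alone, were not searched and are not marked. The windows are chr6:48684328-48684627 (Gimap4, plus strand), chr6:48708195-48708494 (Gimap6, minus strand), chr6:48718371-48718670 (Gimap7, plus strand) and chr6:48738797-48739096 (Gimap1, plus strand) of GRCm38.p6.
Gimap4: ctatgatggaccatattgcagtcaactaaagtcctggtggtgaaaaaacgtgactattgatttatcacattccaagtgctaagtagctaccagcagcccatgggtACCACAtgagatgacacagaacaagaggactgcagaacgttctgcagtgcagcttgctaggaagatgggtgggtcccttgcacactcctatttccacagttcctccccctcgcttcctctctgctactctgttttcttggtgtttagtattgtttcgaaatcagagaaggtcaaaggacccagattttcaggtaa
Gimap6: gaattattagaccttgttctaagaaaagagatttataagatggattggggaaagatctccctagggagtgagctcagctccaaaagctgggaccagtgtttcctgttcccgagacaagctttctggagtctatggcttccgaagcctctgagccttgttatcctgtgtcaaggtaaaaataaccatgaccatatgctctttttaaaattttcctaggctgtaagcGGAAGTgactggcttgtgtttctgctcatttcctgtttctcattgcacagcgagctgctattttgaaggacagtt
Gimap7: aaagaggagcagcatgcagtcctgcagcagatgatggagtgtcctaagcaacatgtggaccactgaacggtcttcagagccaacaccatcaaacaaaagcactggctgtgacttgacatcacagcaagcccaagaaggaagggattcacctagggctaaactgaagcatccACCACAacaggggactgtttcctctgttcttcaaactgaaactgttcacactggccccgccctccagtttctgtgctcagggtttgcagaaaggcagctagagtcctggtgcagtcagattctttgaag
Gimap1: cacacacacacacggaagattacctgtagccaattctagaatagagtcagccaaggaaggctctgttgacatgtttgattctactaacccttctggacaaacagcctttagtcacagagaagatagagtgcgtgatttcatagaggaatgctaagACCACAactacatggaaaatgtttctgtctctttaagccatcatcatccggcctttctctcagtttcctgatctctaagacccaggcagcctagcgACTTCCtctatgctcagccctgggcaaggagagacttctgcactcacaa

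The start of the transcript is base 251 of each window. The RUNX letters begin at base 106 in Gimap4, 172 in Gimap7 and 156 in Gimap1, and the ETS letters at base 226 in Gimap6 and 252 in Gimap1. Of the 9 windows of the 8 members (Gimap8 has 2 starts), 4 hold the ETS letters and 3 the RUNX letters, against 23.8% and 16.8% of all 32851 windows of the same length. The letters AGATAA, bound by GATA factors, were in 0 of the 9 windows (11.2% of all windows), and CTTTGA, bound by the TCF/LEF factors of the Wnt pathway, in those of Gimap4 and Gimap7 (16% of all windows). Gimap1, which was bright in every group, holds both marked motifs, and the windows of Gimap3 and Gimap8 hold none of the 4 searched. All searches covered both strands, and no match in a Gimap window overlapped another.

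Gimap3, known in mice for an effect on how mitochondrial DNA variants are passed on in leukocytes, had intensities of 809.2, 1143.5 and 742.3 in NEG of mice 1, 2 and 3. In R the same mice gave 91.4, 93.5 and 91.9. In the other gates its intensities were 87.2, 104.2 and 88.9 in BRAF G, 82.9, 112.2 and 117.3 in BRAF RG, 113.4 and 101.7 in luciferase G, and 90.1 and 84.0 in luciferase RG. Each of the 3 NEG arrays thus lay far above all 13 others, which stayed under the array median. The log2 difference of R from NEG was -3.26, with group means of 9.79 ± 0.33 in NEG and 6.53 ± 0.02 in R (SD, n = 3), and the signal was at least 7.4-fold lower.

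Gimap4, a modulator of T cell death, followed the same course. Its intensities were 802.2, 1113.8 and 757.0 in NEG and 90.5, 82.7 and 87.3 in R. All other arrays lay between 78.0 and 102.2. The log2 difference of R from NEG was -3.34, from 9.78 ± 0.30 to 6.44 ± 0.07 (SD, n = 3), at least 7.36-fold. The difference ran from -3.75 to -3.12 over the 3 mice, so the spread between mice was small beside it.

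Gimap7, which in human cells is known to activate the GTPase of other family members, had intensities of 416.7, 879.4 and 541.7 in NEG and 71.6, 85.1 and 81.0 in R, with no array outside NEG above 93.8. It was at least 4.89-fold lower in R (log2 difference -2.88). Gimap6, a partner of the autophagy protein Gabarapl2, had 304.7, 504.6 and 292.1 in NEG and 144.1, 108.1 and 96.0 in R. It was at least 2.8-fold lower in R (log2 difference -1.64), and was above the median on 1 of 3 R arrays (mouse 1) and 1 of 3 BRAF RG arrays (mouse 3, 130.8). For each of these 4 genes mouse 2 gave the highest NEG value.

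**Figure D1:**
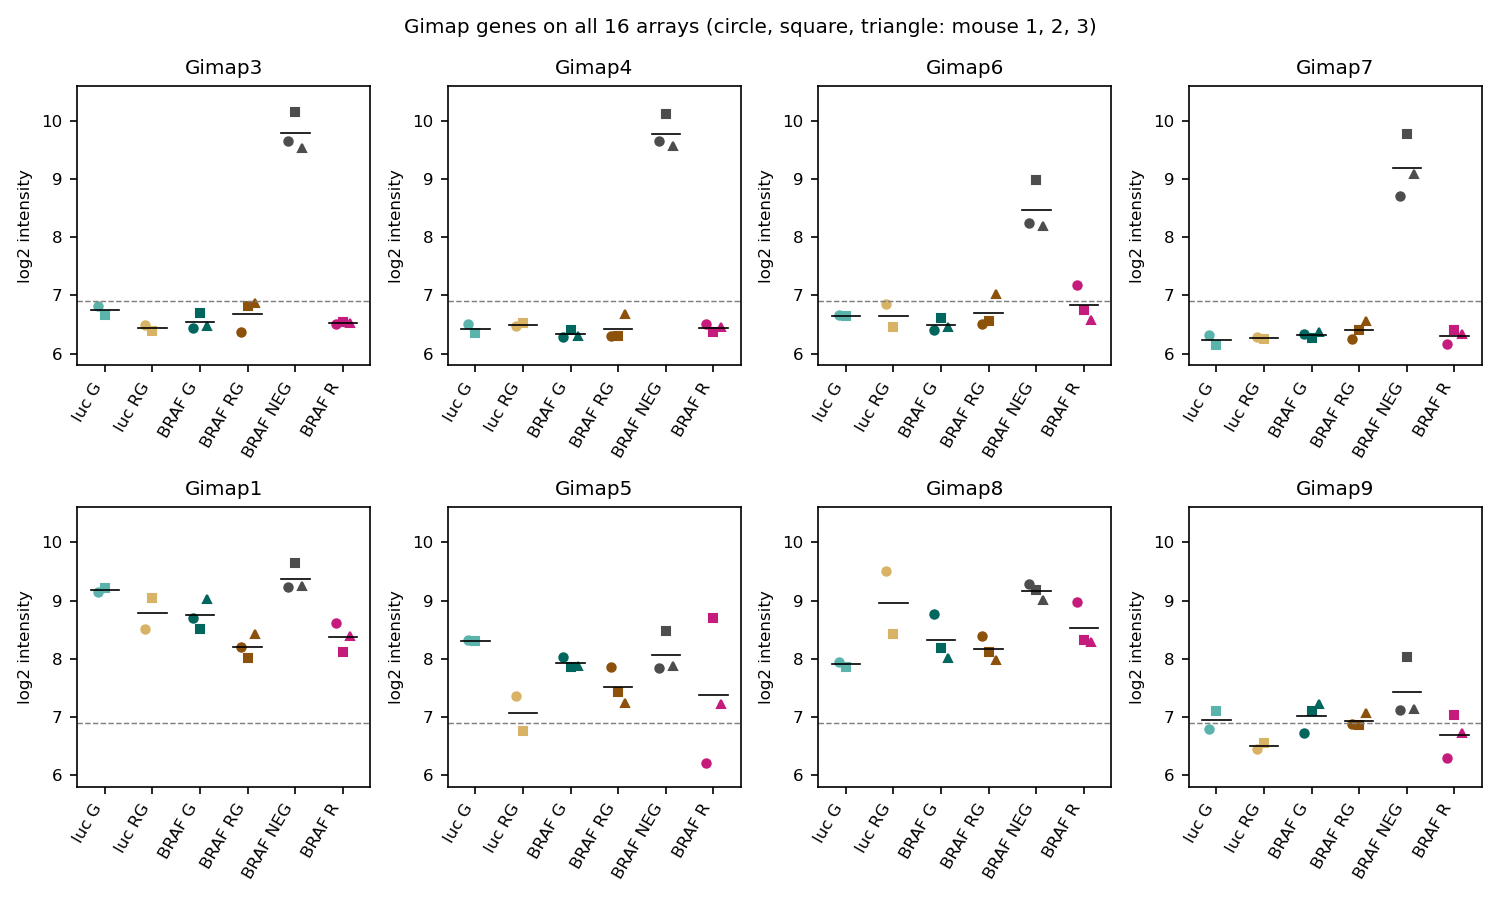
Log2 intensity of the 8 Gimap genes (1 probe each) on the 16 arrays by group, with a bar at the group mean and a dashed line at the array median. Gimap3, Gimap4, Gimap6 and Gimap7 are high in BRAF NEG only (group means 8.47 to 9.79, all other group means 6.84 or lower). Gimap1, Gimap5 and Gimap8 have group means above the array median in all 6 groups. Gimap5 is under it on BRAF R of mouse 1 (intensity 74.3) and luciferase RG of mouse 2 (108.0).

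Gimap1, required in mice for the upkeep of mature lymphocytes, was bright everywhere. Its intensities were 601.5, 802.2 and 610.1 in NEG, 394.2, 276.2 and 334.0 in R, 413.8, 366.4 and 521.7 in BRAF G and 292.7, 258.0 and 342.3 in BRAF RG. In the luciferase line they were 567.7 and 594.0 in G and 366.5 and 528.4 in RG. NEG lay above every other group, by less than the gap seen for Gimap3 or Gimap4: the log2 difference was -1.01 in R and -0.63 in G. By mean level the order was BRAF NEG, luciferase G, luciferase RG, BRAF G, BRAF R and BRAF RG, and neighbours in that order did not overlap from NEG to luciferase G and from luciferase G to luciferase RG, but overlapped from there on.

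Gimap8, which carries several GTP-binding domains and is known from B cell survival in mice, had intensities of 622.2, 577.4 and 517.0 in NEG and 506.2, 318.1 and 314.1 in R, a log2 difference of -0.63. In BRAF G it gave 435.3, 291.6 and 259.6 and in BRAF RG 335.3, 278.8 and 251.2. In the luciferase line it gave 247.5 and 232.9 in G against 729.3 and 343.2 in RG. The brightest of the 16 arrays for this gene was therefore not a NEG array but luciferase RG of mouse 1.

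Gimap5, whose loss causes lymphopenia in rats and mice, showed the widest spread within a group. With the probe of higher signal its intensities in R were 74.3, 416.7 and 149.4, which enclose the 230.3, 354.9 and 235.6 of NEG, and the log2 difference of -0.69 was lower in 2 of 3 mice and had the opposite sign in mouse 2 (0.23). In BRAF G, at 260.9, 230.6 and 235.1, it overlapped NEG too. Gimap9 had 138.5, 260.9 and 139.8 in NEG and 78.3, 131.4 and 105.7 in R, at least 1.39-fold lower, and overlapped NEG in G (105.2, 137.2 and 149.4).

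Over the family, 5 of the 8 genes had a log2 difference of -1 or lower in R against NEG, with 2.67% of all genes tested past that fold in this direction. In 7 of the 8, every R array lay under every NEG array, as it did for 16% of all genes tested. Gimap5 was the exception. The median difference was -1.32, beside -0.01 over all genes. Those counts follow from how the genes were picked and nothing is read from them. In G against NEG, which uses the same NEG arrays, 4 of 8 genes had a log2 difference of -1 or lower (2.27% of all genes tested) and 6 of 8 did not overlap (8.85% of all genes tested), all but Gimap5 and Gimap9. The median was -1.41, beside 0.04 over all genes. Gimap3, Gimap4, Gimap6 and Gimap7 were dim in G, which is green like RG and red-low like NEG.

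Both probes of a gene were compared where there were 2. For Gimap4 the second probe was also bright in NEG and dim in all other groups, with 281.1, 342.8 and 221.2 in NEG and 82.0, 82.5 and 80.7 in R. For Gimap1 the second probe gave 245.6, 236.1 and 269.3 in NEG and 176.3, 137.9 and 126.3 in R, a log2 difference of -0.78. The 2 probes of Gimap5 disagreed. The dimmer one was above the array median on 2 arrays only, both NEG, and gave 124.3, 166.1 and 117.4 in NEG against 91.7, 72.7 and 68.9 in R with no overlap. The annotation also lists the name Gimap5 as an older synonym of Gimap3, and which transcripts each Gimap5 probe binds was not tested.

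**Figure D2:**
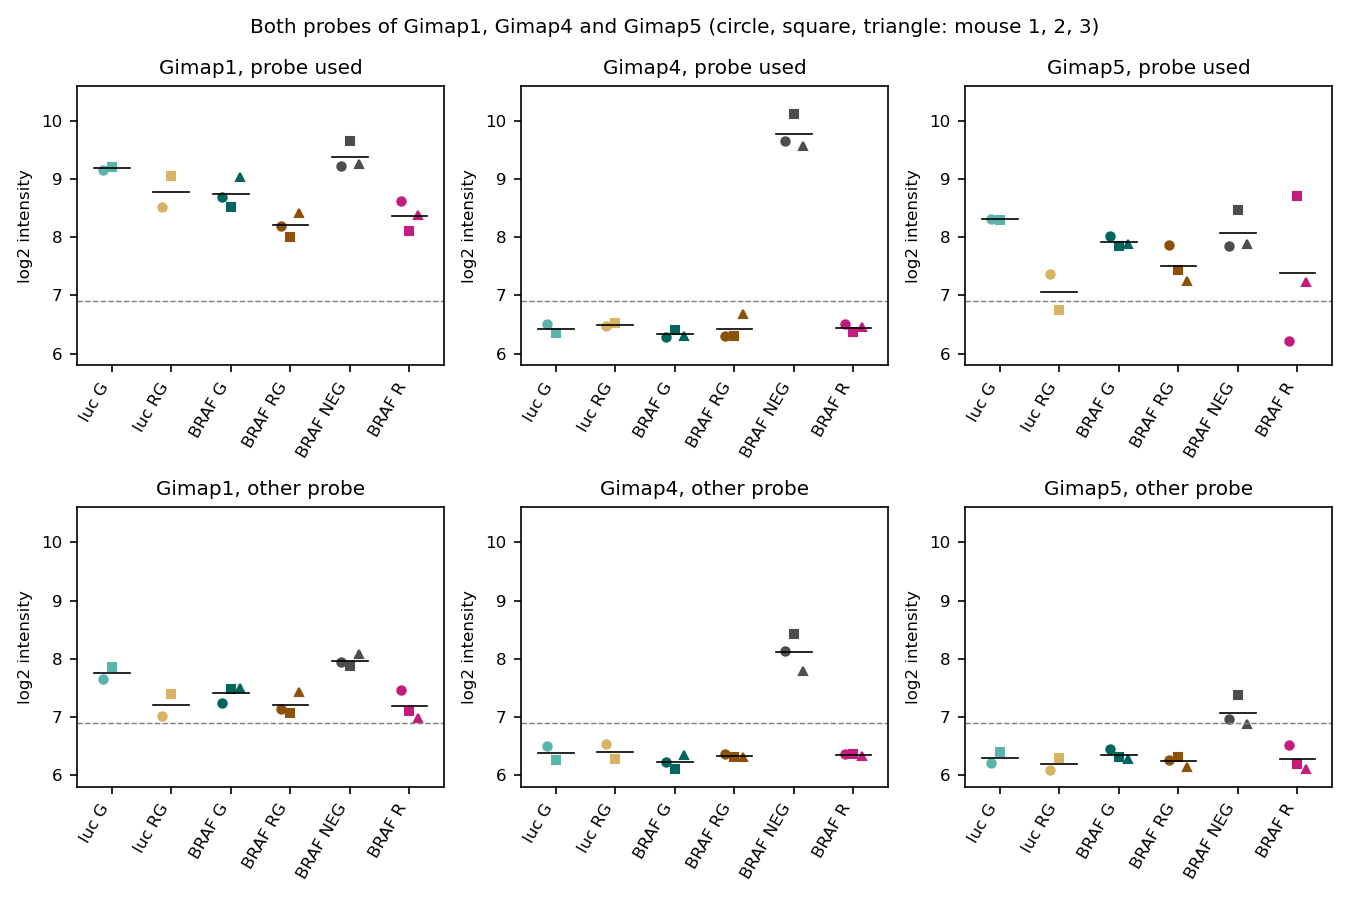
Log2 intensity of the 2 probes of Gimap1, Gimap4 and Gimap5 on the 16 arrays, with group means as bars and the array median as a dashed line. Both probes of Gimap4 are above the median in NEG alone, whereas the probe used for Gimap5 runs from 74.3 to 416.7 in BRAF R and the other one is above the median on 2 NEG arrays only.

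The label of the NEG gate was checked against marker genes. Markers of the crypt epithelium (9 with a probe: Krt8, Krt18, Krt19, Cdh1, Cldn3, Cldn7, Vil1, Lgals4 and Tspan8) were above the array median on every array of all 6 groups, with summed intensities of 43702 to 45617 in NEG and 36347 to 64201 elsewhere. Lgr5, the stem cell gene behind the green gate, ran from 166.5 to 362.7 in NEG and from 243.6 to 595.9 in BRAF G, so these gates overlapped for it. Against the gate labels, its mean log2 intensity in NEG (7.82), gated low for the Lgr5 reporter, was above that in BRAF RG (7.47) and luciferase RG (7.12), both gated high. The NEG arrays enclosed those of BRAF RG (168.3 to 182.0), so these gates overlapped too, and lay above those of luciferase RG (138.1 to 141.0). Olfm4, another stem cell gene, also lay higher in NEG (3790.8 to 4606.3) than in BRAF RG (2518.9 to 3212.6). Ascl2, Sox9 and Slc12a2 were about level, with mean log2 intensities of 7.42, 9.54 and 13.65 in NEG and 7.44, 9.55 and 13.63 in BRAF RG. The summed intensity of the 9 stem cell markers with a probe overlapped, at 22121 to 25470 in NEG and 19172 to 24317 in BRAF RG. Of 18 T and NK cell markers with a probe, 16 were above the median on every NEG array, against 2 to 4 in the other groups. Their summed intensity was 15534 to 22964 in NEG and 1722 to 2240 on the 13 other arrays. Cd3d, Cd3e and Cd3g, parts of the T cell receptor complex, were dim in every other group, at most 117.9, 98.9 and 89.0 there, and Cd3d was at least 9.04-fold lower in R than in NEG. Cd8a, a coreceptor gene of T cells, did not share this: it lay at 156.3 to 185.0 in NEG and 158.7 to 255.5 in R. Cd8b1, the other Cd8 gene on the list, did: it lay at 184.5 to 320.8 in NEG and at most 96.0 elsewhere, at least 2.23-fold lower in R. Cd2 overlapped between R and NEG, and Cd4 was dim on every NEG array. Ptprc, the pan-leukocyte gene for CD45, was at 597.8 to 919.5 in NEG and at most 99.8 elsewhere.

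Markers of other cells that express Gimap genes were looked at in the same way. Of 13 endothelial markers 9 were dim on every NEG array, Cdh5 among them, and their summed intensity was 1291 to 1458 in NEG and 1169 to 1573 elsewhere. Of 13 myeloid markers 9 were above the median on every NEG array against 4 or 5 in other groups, with a summed intensity of 5882 to 9114 in NEG and 1927 to 4721 elsewhere. Among them Tyrobp, an adaptor of myeloid and NK cell receptors, and Clec10a, a lectin of macrophages and dendritic cells, were at least 11.9- and 8.04-fold lower in R than in NEG. Lyz2, Ctss, Cd74, H2-Aa and H2-Ab1 overlapped between R and NEG, and Itgam, Adgre1, Cd14 and Cx3cr1 were dim on every NEG array. Of the 10 tested myeloid markers 4 had a log2 difference of -1 or lower in R (2.67% of all genes tested), with a median of -0.46. Among these 4, Itgax and Clec10a were dim on every array outside NEG. They passed the filter through NEG alone, so their fall had to appear. Of 10 B and plasma cell markers 5 were above the array median on every NEG array, with sums of 2556 to 2693 in NEG and 1998 to 3096 elsewhere. Genes bright in every gate, such as Xbp1, carry these sums. The mean log2 intensity of the list was 7.44 to 7.46 in NEG and at most 7.30 elsewhere. Jchain lay at 160.4 to 207.9 in NEG and at most 90.3 elsewhere, and Cd79b was lower in R without overlap (log2 difference -0.71). Cd79a, part of the B cell receptor, was above the median on 1 of 3 NEG arrays and on 0 elsewhere. Of 12 stromal and muscle markers 10 were dim on every NEG array, with sums of 2078 to 2353 in NEG and 2065 to 3083 elsewhere. Of 10 pan-leukocyte markers all were above the median on every NEG array, against 3 to 5 in other groups. Their sums were 10350 to 14037 in NEG and 2241 to 5366 elsewhere. Sh3bgrl3, bright in every gate, went against this list: it lay at 2150.3 to 2452.6 in NEG and 2987.0 to 4353.5 in R. It carries a large part of the sums outside NEG. The T and NK and the pan-leukocyte list, and part of the myeloid list, thus stood out in NEG as Gimap3, Gimap4, Gimap6 and Gimap7 did. Gimap1, Gimap5, Gimap8 and Gimap9 followed this pattern less closely. The part of these lists in the difference was not tested.

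**Figure D3:**
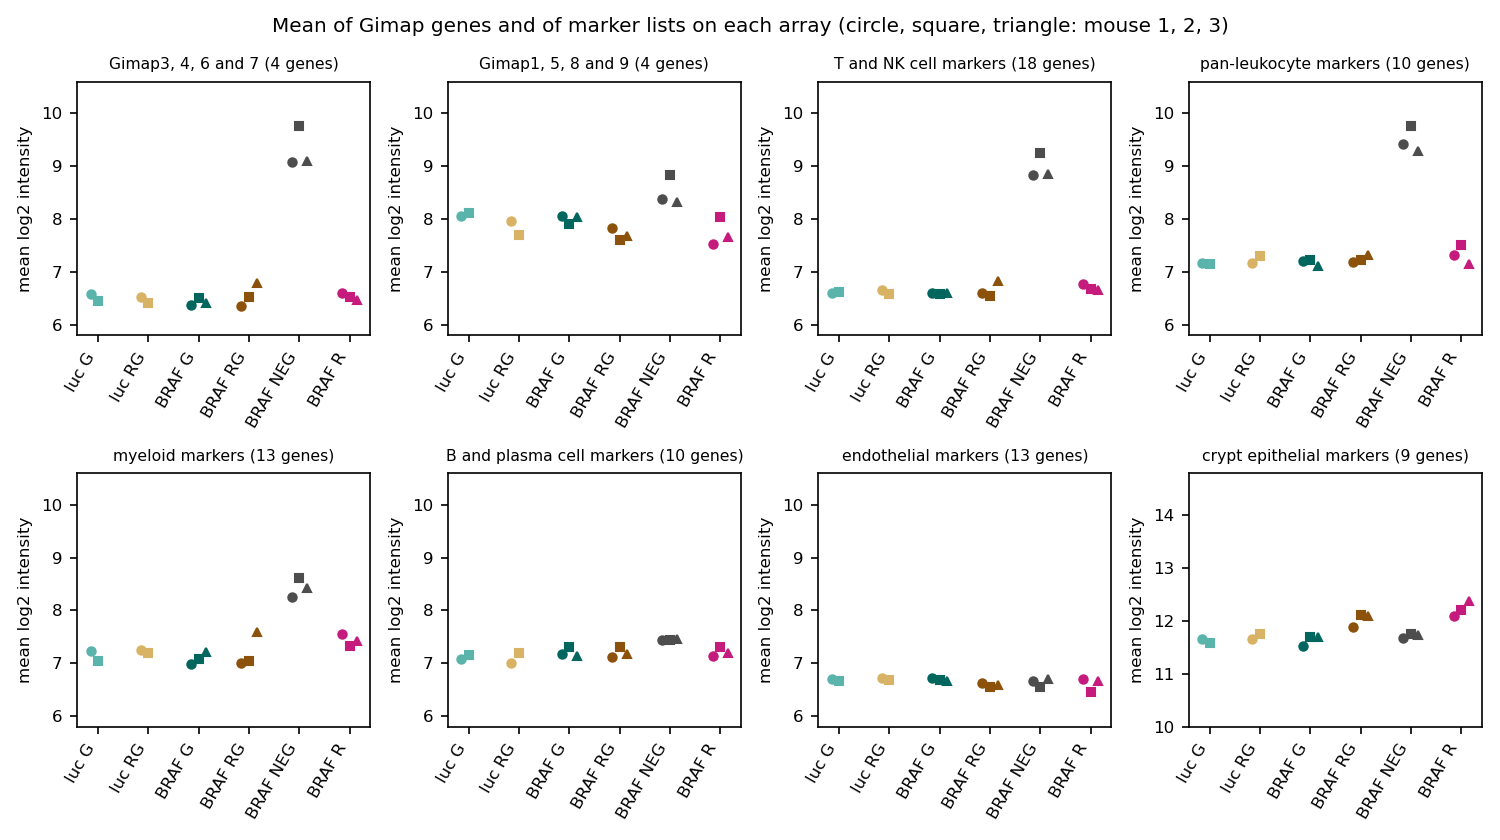
Mean log2 intensity per array of 2 sets of Gimap genes and of 6 marker lists, by group. The set of Gimap3, Gimap4, Gimap6 and Gimap7 (9.07 to 9.76 in NEG, at most 6.78 elsewhere) and the T and NK cell list (8.83 to 9.25 in NEG, at most 6.83 elsewhere) stand out on the same 3 arrays, as do the pan-leukocyte list (9.29 to 9.75 in NEG) and the myeloid list (8.25 to 8.62, at most 7.60 elsewhere), and the endothelial list does not; the epithelial panel has its own axis range.

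Across the 16 arrays, the log2 intensities of Gimap3, Gimap4, Gimap6 and Gimap7 correlated with each other at Pearson's r from 0.96 to 0.99, and with the mean of the T and NK cell list at 0.97 to 1.00. Gimap1, Gimap8 and Gimap9 correlated with that list at 0.65, 0.61 and 0.63 and Gimap5 at 0.26 (0.92 with its dimmer probe). These values describe arrays that share mice and are carried by the 3 NEG arrays. Over the 13 arrays outside NEG the correlation was 0.88 for Gimap6, 0.68 for Gimap4, 0.16 for Gimap3 and 0.23 for Gimap7, at signals near or under the array median, and -0.15 for Gimap1. The 10 genes outside the family whose log2 intensity was most like the mean of the 8 members over the 16 arrays were Cd6, Gzmb, Ptprc, Lcp2, Cd96, Tbc1d10c, Parvg, Clec10a, Ctsw and Actn2, of 10599 compared, with r from 0.987 to 0.993. Without the NEG arrays their r with the members ran from -0.30 (Clec10a) to 0.65 (Ptprc).

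The genes on either side of the cluster did not share the pattern of Gimap3 and Gimap4. Of the 5 nearest protein-coding genes with a probe on each side, a set chosen by position after the data were seen, 5 were dim in both gates. In R against NEG the other 5 had log2 differences of 0.33 for Atp6v0e2, -0.64 for Repin1, -0.48 for Tmem176b, -0.50 for Tmem176a and 0.09 for Aoc1. Within the cluster Gimap4, Gimap6 and Gimap7 are neighbours, and Gimap3, which differed as much as Gimap4, lies at the far end behind Gimap1 and Gimap5.

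**Figure D4:**
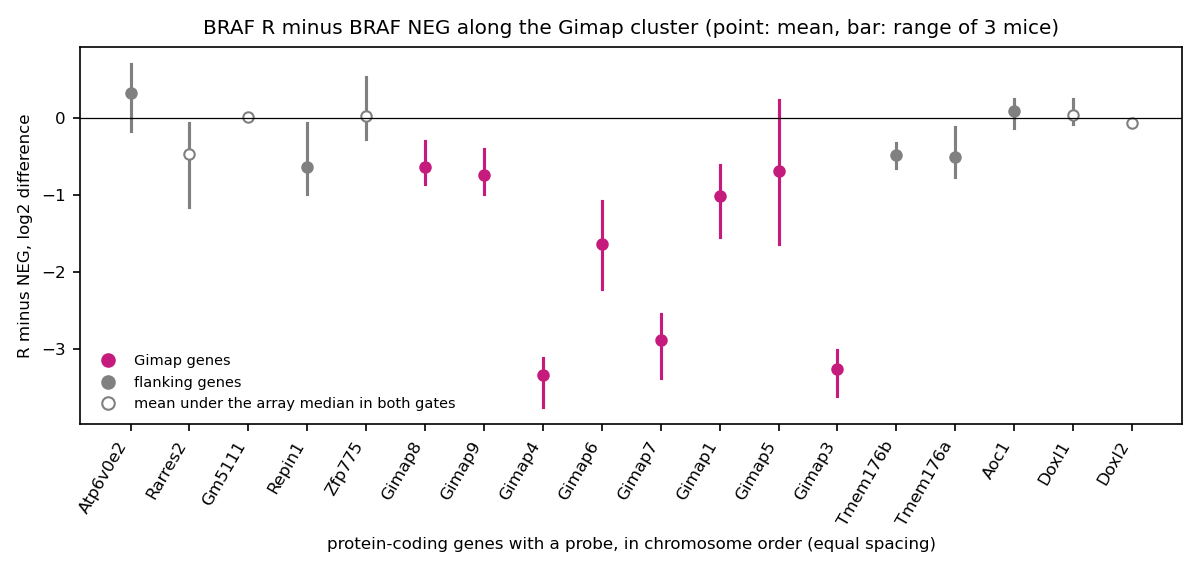
Log2 difference of BRAF R from BRAF NEG for the 8 Gimap genes and 5 flanking genes on each side, in chromosome order at equal spacing; points are differences of means and bars the range over 3 mice. The Gimap genes lie between -3.34 and -0.63, and the flanking genes between -0.64 and 0.33.

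Genes tied to Gimap function were taken from a list of 22 lymphocyte survival genes, 16 of them tested. In R against NEG 4 of the 16 had a log2 difference of -1 or lower, beside 2.67% of all genes tested: Bcl2l11 (-1.63), which encodes the death-promoting protein BIM, Bcl2 (-1.60), which encodes its survival-promoting opponent, Il7r (-1.33) and Il2rb (-1.13), subunits of the receptors for interleukins that keep T cells alive. Il7r was dim on every array outside NEG, so it passed the filter through NEG alone and its fall had to appear. Bcl2 lay at 801.5 to 1231.7 in NEG and at 214.4 to 488.6 in R, and Bcl2l11 at 550.1 to 840.3 and 172.3 to 323.4. The median of the list was -0.00, against the -0.01 of all genes, and 0 of 16 members had a log2 difference of 1 or higher. Of 8 tested genes of other immune and dynamin GTPases, 0 had a log2 difference of -1 or lower, with a median of -0.32. In 3 of the 8 every R array lay under every NEG array, as it did for 16% of all genes tested. These were Irgm2 (-0.86, the lowest), Gbp7 (-0.77) and Gbp2 (-0.74). Gbp2 was dim on every array outside NEG, so its fall had to appear.

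The members were picked without the G and RG arrays. Tests among these arrays are still not fully independent of the picking. The limma fit shares its estimate of spread over all 6 groups, NEG and R included. It does not pair the gates sorted from the same mouse. Fits with mouse as a block are given among the alternatives below. Red and non-red green cells of the BRAF line were compared first, which asks whether the Gimap signal of cells gated high for the green reporter differed with the BRAF transgene. In limma's test across all 10607 genes, 0 of the 8 members passed an adjusted p of 0.05 (0.801% of all genes passed), and 1 had an unadjusted p under 0.05. That gene was Gimap1, with a log2 difference of -0.54 ± 0.20 (SE; 95% interval -0.96 to -0.11; adjusted p 0.359), lower in RG in 3 of 3 mice. Its second probe gave a smaller difference of -0.20 ± 0.17 (limma p 0.267). Gimap5 differed by -0.41 ± 0.42 (interval -1.31 to 0.49) and Gimap8 by -0.16 ± 0.27 (interval -0.73 to 0.41). Fitted with only the groups compared, which leaves out the widely spread R arrays, Gimap5 had an SE of 0.18 (limma p 0.0497, adjusted p 0.401). Gimap3, Gimap4, Gimap6 and Gimap7 were dim in both gates, as in those of the luciferase line, so no difference could be measured there or in the comparisons that follow.

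In the luciferase line, where red cells carry luciferase in place of BRAF, 1 of 8 members passed (11.9% of all genes passed). Gimap8 rose from a mean log2 intensity of 7.91 ± 0.06 in G to 8.97 ± 0.77 in RG (SD, n = 2), a difference of 1.06 ± 0.33 (SE; limma adjusted p 0.0475), higher in 2 of 2 mice. Its RG arrays, at 729.3 and 343.2, differed from each other by about as much as from G, and without mouse 1 the difference was 0.56 with an adjusted p of 0.465. The call was also lost without BRAF mouse 2 (adjusted p 0.0978) or BRAF mouse 3 (0.0899), which enter only the shared estimate of spread. A share of 1 in 8 is near the share of all genes called, but these 8 include Gimap3, Gimap4, Gimap6 and Gimap7, dim in both gates. Gimap5 had a difference of -1.25 ± 0.52 (adjusted p 0.129), from 319.8 and 315.3 in G to 165.0 and 108.0 in RG, and Gimap1 one of -0.40 ± 0.24 (adjusted p 0.305). With only the groups compared, the SE of Gimap5 was 0.25 (limma p 0.00392, adjusted p 0.0617). Lgr5 fell in the same comparison by 1.69 on the log2 scale (limma adjusted p 0.0118).

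Between the lines, non-red G cells showed 0 of 8 members past the threshold (0.217% of all genes passed) and 0 at an unadjusted p under 0.05. Gimap1 was at -0.44 ± 0.22 in BRAF G against luciferase G (interval -0.91 to 0.04; limma adjusted p 0.705). In RG cells 0 of 8 passed (16.6% of all genes passed) and 2 had an unadjusted p under 0.05. Gimap8 was at -0.80 ± 0.30 (adjusted p 0.0771) and Gimap1 at -0.57 ± 0.22 (adjusted p 0.0896) in BRAF RG against luciferase RG. The value of Gimap8 rested on the luciferase arrays: it was -0.26 without luciferase mouse 1 and -1.35 without luciferase mouse 2, where it passed (adjusted p 0.0184). For Gimap1 the second probe gave 0.01, so its difference rests on 1 probe. Line and transgene cannot be told apart in these comparisons, since each transgene was carried by its own mice.

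The change from G to RG was also compared between the lines. With 0 of 8 members past the threshold (0.481% of all genes passed), the difference of the changes was -1.22 ± 0.42 for Gimap8 (interval -2.12 to -0.32; limma adjusted p 0.206), the only member with an unadjusted p under 0.05, at 0.0112. For Gimap1 it was -0.14 ± 0.32 (interval -0.81 to 0.53). Of the 17 tested T and NK cell markers 0 passed in any of the 5 comparisons, but 9 of them lay under the array median on every array outside NEG and so could not show a difference there.

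**Figure D5:**
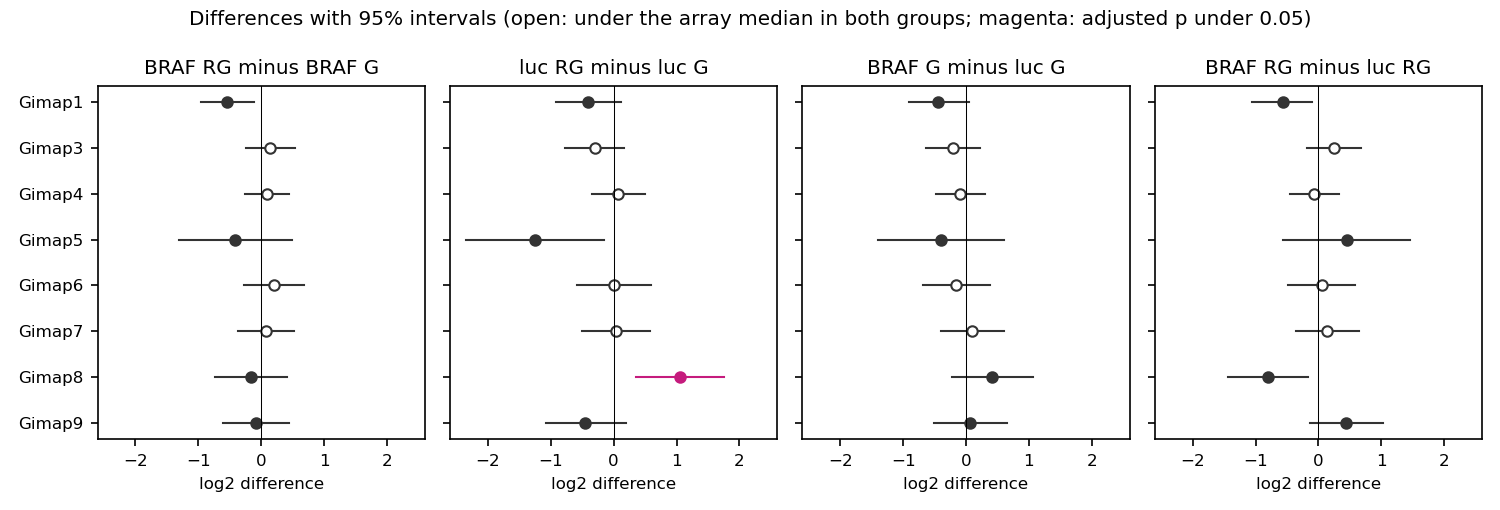
Log2 differences of the 8 Gimap genes with 95% intervals from limma in the 4 comparisons among G and RG gates. The only gene past an adjusted p of 0.05 is Gimap8 in luciferase RG against G (1.06), and open circles mark genes whose mean was under the array median in both groups.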

How the data were processed

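Per the labels' protocols, sorted cells gave RNA through RNeasy Micro columns, with NuGen labelling; the submitters' processing notes name GenomeStudio. The deposited intensity values were taken without change. They are linear, from 55.7 to 40121.2, and normalized to 1 distribution by the authors, as the sorted values of the 16 arrays agree within 1.2. No source used here states a background correction, and the lowest value is far above 0. A second deposited table (32 columns) was not used, because its running numbers match no label. The number of arrays limits the precision.

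Log2 intensities were fitted with limma 3.58.1 in R 4.3.3 (6 group means, 10 residual degrees of freedom), after tests on simulated data. Probes needed a value over the array median on 2 or more arrays (16005 kept); the array median stands in for a detection limit. Each gene took its kept probe of highest mean, and p-values were adjusted by Benjamini-Hochberg over 10607 genes. Of 23978 probes with 1 symbol, 23962 matched RefSeq (GRCm38.p6) by identifier; 0 had several and 1719 none. All 8 members had a RefSeq start window.

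The label descriptions give the mouse, so equal numbers within a line are the same animal: deviations from group means correlated above 0.1 in 18 of 18 same-mouse pairs of the BRAF line (median r 0.319), and at 0.0457 in the luciferase line. No chip or day is named, so no batch could be tested. Array weights were lowest in BRAF R of mice 1 and 2 (0.276 and 0.405) and luciferase RG (0.41), against 1.48 in R of mouse 3.

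The members and lists were chosen with earlier results of these data known. Named in the text are all members, the 10 genes most like them, at most 4 members of each list by size of difference, and defining markers. Further markers are named where they went with or against their list. Flanking genes were chosen by position. Alternatives were mouse as a block, no filter, the mean of the probes, a subtracted background, array weights, each mouse left out, and only the groups compared.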

Additional observations from a re-analysis of the deposited data

Results flagged for a closer look

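The change of Gimap8 from G to RG went one way in every mouse of one line and the other way in every mouse of the other. RG was lower than G in 3 of 3 BRAF mice, by log2 differences of -0.38 to -0.05, and higher in 2 of 2 luciferase mice, by 0.56 to 1.56. The difference of the changes was -1.22, which did not pass (limma adjusted p 0.206, and 0.0511 to 0.586 over 11 alternatives). The luciferase RG arrays had the lowest array weights but for R of mice 1 and 2.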

How the results depend on the processing

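The call of Gimap8 in luciferase RG against G depended on the settings: over 11 alternatives its difference stayed positive (0.56 to 1.56) with adjusted p from 0.00758 to 0.465, and passed in 4. The number of members called was 0 with no filter on dim probes (adjusted p 0.0734), with the lowest value subtracted (0.0542), with array weights (0.0585) and with only the groups compared (0.162). Leaving out 1 mouse gave 0 to 1 members called: without BRAF mouse 2 Gimap5 passed (adjusted p 0.038) and Gimap8 did not, without BRAF mouse 3 or luciferase mouse 1 none did. The lone luciferase array of a group is then taken to vary like the other groups. With array weights 1 member, Gimap1, was called in BRAF G against luciferase G (adjusted p 0.0378). In BRAF RG against luciferase RG, leaving out 1 mouse gave 0 to 1, as Gimap8 passed without luciferase mouse 2 (-1.35, adjusted p 0.0184). With mouse as a replicate block, 0 members passed in BRAF RG against G, 1 in luciferase RG against G (Gimap8, adjusted p 0.00758) and 0 in the other comparisons; between lines within a gate, mouse was a random block, chosen after seeing the data. No Gimap call changed with the block. The causes were not tested. The median of BRAF G minus BRAF NEG was -1.79 with the lowest value subtracted, against -1.41. Over 11 alternatives, calls among all genes ran from 17 to 292 (85 as reported) for BRAF RG against G, 341 to 1853 (1261) for luciferase RG against G, 1 to 1054 (23) for G between lines, 343 to 1892 (1761) for RG between lines and 0 to 221 (51) for the difference of changes. Signals near the array median limit what can be seen of Gimap3, Gimap4, Gimap6 and Gimap7 outside NEG.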
